A study of Mus musculus with 3 samples.

Results

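The transcripts of mouse blastocysts from aging females were compared between embryos cultured with CXCL5-CXCR2 signaling suppressed and embryos cultured without treatment. The comparison used 2 of the 3 arrays of the study, with 1 pool of 30 expanded blastocysts on each array. Genes were included where a probe lay well above background on both arrays, as called by the scanner software, which held for 14192 of the 23462 genes that could be named on the array.

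All embryos came from ICR females, were collected as zygotes 18 h after hCG and were cultured for 96 h in 30 µl drops. The females of the 2 groups compared were 43 to 53 weeks old. Suppressed aging embryos received 10 µg/ml of a neutralizing antibody to CXCL5 together with 10 nM of a CXCR2 antagonist, so the effects of the antibody and of the antagonist cannot be told apart. The third array held blastocysts of young females, 3 to 6 weeks old, and is cited below only for its levels. Defining genes of the blastocyst were bright on both arrays, such as Nanog of the epiblast and Krt18 of the trophectoderm, whose values are given with their lineages. Each condition is 1 pool, so the values carry no error between embryos or females, no test between the conditions was possible, and the small number of arrays limits how precise each statement can be.

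CXCL5 is a chemokine, a small secreted protein that attracts neutrophils and that belongs to the secretory products of senescent cells. It binds CXCR2, a receptor that couples to inhibitory G proteins and passes its signal through phospholipase C, PI3K and AKT, and the RAS and ERK kinases. A blastocyst consists of the trophectoderm, which pumps fluid into the cavity and makes first contact with the uterus, the epiblast, which forms the embryo proper, and the primitive endoderm, which forms the yolk sac lining.

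Levels below are log2 intensities relative to the 75th percentile of the array, which was an intensity of 154.5 (aging) and 122.3 (suppressed aging). A difference is the level on the suppressed aging array minus the level on the aging array, and a gene is read by its brightest measured probe unless stated. The levels of the 14192 genes correlated between the arrays (Pearson's r = 0.960 across genes, which are not independent replicates). The median difference was 0.00, with a standard deviation of 0.77 across genes, and 50.2% of genes were higher after suppression. Over 2-fold higher were 1008 genes (7.10%), and over 2-fold lower were 1014 genes (7.14%). This balance depends on how the arrays are scaled to each other. With the authors' values 818 genes were over 2-fold higher and 1137 lower, and the median difference was -0.09. Just inside and outside the 2-fold limit lay Rtn3 (1.0008) and Gm20257 (0.9996) on the higher side, and Cyp4a10 (-1.0007) and Ccdc22 (-0.9998) on the lower side. A further 735 genes were above background after suppression only and 1119 without treatment only, where the detection limits were levels of -3.93 and -4.32.

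Dim genes differed more than bright genes. Of the 2839 dimmest genes by mean level (a level of -1.79 or less) 22.4% differed over 2-fold, against 3.66% of the 2839 brightest (2.91 or more). The share of genes higher after suppression also varied with level. It was 53% of the 2839 dimmest, 54.1% of the 2839 brightest and 58.7% of the 1420 brightest genes, against 50.2% of all. Replicate spots of 1 probe differed little within an array, with a median standard deviation of 0.05 on either array for the 300 probes spotted 10 times, but this covers the spots and not the embryos, the amplification or the choice of probe.

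**Figure D1:**
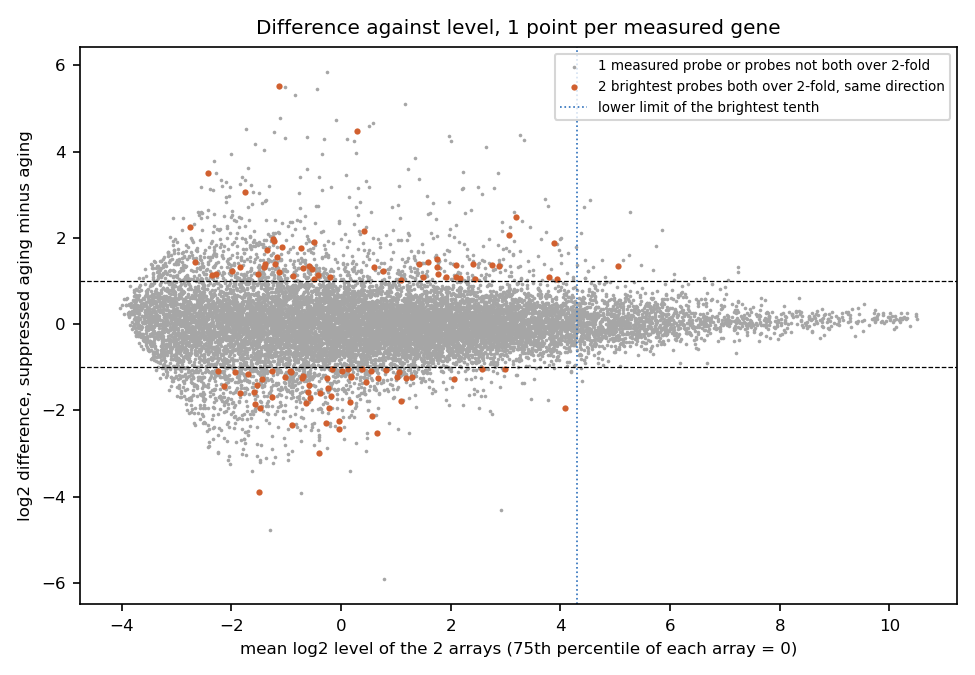
The log2 difference between the suppressed aging and the aging array (vertical axis) is plotted against the mean log2 level of both arrays (horizontal axis), with 1 point per measured gene, dashed lines at 2-fold and a dotted line at a level of 4.31, above which lie the 1420 brightest genes. The cloud narrows with level, and the 53 and 54 genes whose 2 brightest probes both differed over 2-fold in the same direction (orange) lie mostly at low and middle levels.

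A second probe of the same gene gave a harder yardstick. Of the 4830 genes with 2 or more measured probes, 53 (1.10%) had both of their brightest probes over 2-fold higher and 54 (1.12%) both over 2-fold lower. Of the 326 such genes whose brightest probe was over 2-fold higher, the second probe was over 2-fold higher in 16.3% and over 2-fold lower in 7.36%. Of the 260 whose brightest probe was over 2-fold lower, the second probe was over 2-fold lower in 20.8% and over 2-fold higher in 11.2%. The differences of the 2 probes had the same sign in 54.9% of genes and correlated with r = 0.11, or 0.19 among the 2839 brightest genes. Probes of 1 gene can read different transcripts, so they need not agree. For the genes that a statement turns on, the second probe is therefore given beside the brightest, and other genes are named by their brightest probe alone.

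**Figure D2:**
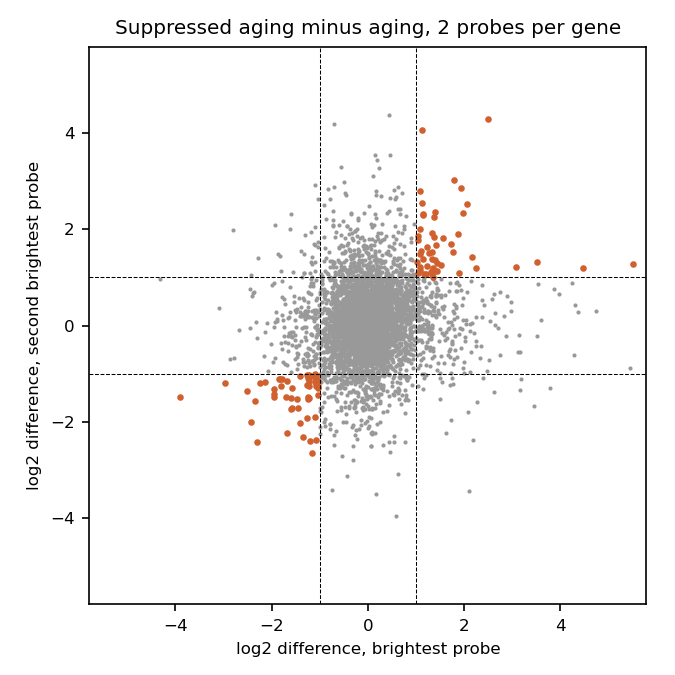
The log2 difference of the second brightest probe (vertical axis) is plotted against that of the brightest probe (horizontal axis) for the 4830 genes with 2 or more measured probes, with dashed lines at 2-fold. Beyond the dashed lines many points differ along 1 axis only, and the orange points are the 53 and 54 genes whose probes both differed over 2-fold in the same direction.

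Chemokines and receptors of the targeted pathway were dim or not above background, apart from the brighter probe of Ackr1. None of the 7 chemokines listed with CXCR2 was measured on both arrays. The transcript of Cxcl5 had levels of -3.71 (young), -4.67 (aging) and -4.07 (suppressed aging) and was above background on the young array only. Cxcl2, another ligand of the same receptor, was above background on the young (-3.05) and aging (-2.88) arrays but not on the suppressed aging array (-4.05), which makes it at least 2.08-fold lower there. Ppbp was above background on the young array only (-3.85), and Cxcl1, Cxcl3, Cxcl15 and Pf4 on none. Cxcr2 itself was above background on the suppressed aging array only (-3.12, against -6.57 on the aging array), at least 2.30-fold higher. Cxcr1, the related receptor, was above background on no array. Ackr1, a receptor that binds chemokines without signaling, had levels of -0.04 and 0.28 for the brighter probe, while its other probe was above background on the aging array only. The antibody acts on the CXCL5 protein and the antagonist on the receptor, neither of which the array reads.

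Of 26 genes that couple CXCR2 to its signal, 18 were measured, 5 higher and 13 lower (median -0.22). Their second probes went the other way, with 6 of 8 higher and a median of 0.24. Arrb2, an arrestin that turns off the receptor, was lowest (-1.10, second probe 0.24), and Gnai2, the inhibitory G protein subunit through which chemokine receptors signal, was highest (1.24, second probe 0.07). Gnb1, the brightest member, gave like differences with both probes (0.48 and 0.43).

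Of the markers of aging cells, the 4 described here differed little except for Il6. The cell cycle inhibitor Cdkn1a (p21) had levels of 2.32 before and 2.11 after suppression (difference -0.21, second probe 0.12). The levels of Trp53 (p53) were 2.82 and 2.73, a difference of -0.09. Cdkn2a, which encodes p16, was dim at -3.14 and -2.90, a difference of 0.24. Il6, an inflammatory cytokine, was higher after suppression, at -1.36 against -2.77 (2.65-fold), and lay at -2.56 on the young array. It has 1 measured probe.

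The wider list of senescence-associated secreted proteins had 16 of 34 genes measured, of which 12 were lower, with a median of -0.24 that became 0.17 when dim probes were not filtered out. Plau, the urokinase plasminogen activator, was lowest (-1.51), from a level of 1.6 on the aging array. Ccl2, a chemokine for monocytes, was also over 2-fold lower (-1.06), at low levels. Serpine2, an inhibitor of such proteases, was highest (0.56), and Mif, the brightest member, differed by -0.39. Plat, the tissue plasminogen activator, was above background on the suppressed aging array only, at least 3.56-fold higher. Against all measured genes, 2 of 16 members were over 2-fold lower, where 7.14% of genes were.

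Downstream kinases gave no common direction. In the RAS list 10 of 21 measured genes were higher and 11 lower (median -0.12). Spry4, an inhibitor of RAS signaling, was lowest at -1.02, Rasa1, a GTPase activator of RAS, was highest at 0.54 with a second probe at 1.40, and Rras2 differed by -0.60 and -0.70 with its 2 probes. In the RAF-MEK-ERK list 15 of 24 were higher, with a median of 0.15. Ksr2 (1.92) was highest, Dusp7 (-1.65), a phosphatase that turns ERK off, was lowest, and Elk1, the brightest, differed by 0.02 (second probe 0.62). Braf, named after its values were seen, differed by 1.80 with the brighter probe and 0.14 with the second.

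Of 9 protein kinase C genes 5 were measured. Prkce was lowest (-1.96), Prkcd highest (0.75, second probe 0.47) and Prkci, the atypical isoform that sets cell polarity in the embryo, differed by 0.07. Among phospholipases A2, which release arachidonic acid from membranes, 4 of 11 measured genes were higher and 7 lower, from Pla2g5 (-2.29) to Pla2g15 (0.64), whereas all 5 second probes were higher. Pla2g12b and Pla2g4f were above background on the suppressed aging array only, at least 8.09-fold and 1.73-fold higher. Pla2g7 and Pla2g2e were above background on the aging array only, at least 2.82-fold and 2.13-fold lower after suppression. The median of this list, -0.20, changed sign when the probes of a gene were averaged and when dim probes were kept.

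Of 17 measured PI3K genes 9 were higher, with a median of 0.12 that became -0.031 when the probes of a gene were averaged, among them the catalytic subunit Pik3ca (1.65). Inppl1, a lipid phosphatase that opposes the kinase, differed by 1.65 with its brighter probe and -0.07 with the second. In the list of AKT, mTOR and their targets 17 of 33 were higher and 16 lower, with 5 over 2-fold higher and 0 over 2-fold lower (7.10% of all genes were over 2-fold higher and 7.14% lower), and the median of 0.18 became -0.039 with normexp background correction. Rps6kb1, the S6 kinase that mTOR activates, was highest at a level of 3.99 against 0.45, an 11.6-fold difference, where the second probe gave 0.86. Lamtor1 was the brightest member (-0.24) and Lamtor5 the lowest (-0.88), both parts of the complex that anchors mTOR to lysosomes. Of the TCL1 proteins, which are coactivators of AKT in the early embryo, 4 of 7 were measured, from Tcl1b2 (-0.91) to Mtcp1 (0.73), all at low levels, and Tcl1 itself differed by -0.26.

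Genes of the cell cycle were as often higher as lower. Of 37 measured cyclins, CDKs and their regulators 17 were higher, of 50 DNA replication genes 27, and of 48 mitosis genes 26, with medians of -0.06, 0.06 and 0.07. E2f2, a transcription factor of the S phase, was higher with both probes (2.17 and 1.42). Cdkn1c, a cell cycle inhibitor, was lower (-1.83), and Cks1b was the brightest of its list (-0.22, second probe -0.59). Cdk4, named after its values were seen, was lower by like amounts with both probes (-0.65 and -0.66). Pola2, a DNA polymerase subunit, was highest in replication (2.73), whereas Orc1 of the origin recognition complex was lowest (-1.41, second probe 0.28). Kif23, a kinesin of cell division, was highest in mitosis (1.52, second probe 0.64), Stag2 of the cohesin ring lowest (-1.13), and Birc5 the brightest (0.11).

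The anaphase-promoting complex, the ubiquitin ligase that starts chromosome separation, had all 19 genes measured, 8 higher and 11 lower (median -0.05). Anapc1, its largest subunit, stood apart within the list. One probe read 1.95 for aging and 4.43 for suppressed aging blastocysts, and the other 0.20 and 4.49, so the differences were 2.48 and 4.29. The young array read 1.55 and 0.08, near the aging array. Anapc4, named after its values were seen, was also higher with both probes (1.36 and 0.96). Fzr1, an activator of the complex, was lowest (-0.62, second probe 0.33) and the bright Ube2s differed by -0.42.

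The lists below are led with because of their values. In all 47 lists were described, 43 of them with 5 or more measured genes, and 21 of these 43 had a median within 0.1 of 0. The trophectoderm list had the highest median and the list of cholesterol synthesis the lowest, so both are extremes picked from many lists. In 22 of the 43 lists the median kept its sign under each way of processing that was planned, and in 25 of the 34 lists with 5 or more 2-probe genes the median of the second probes had the same sign as that of the brightest.

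**Figure D3:**
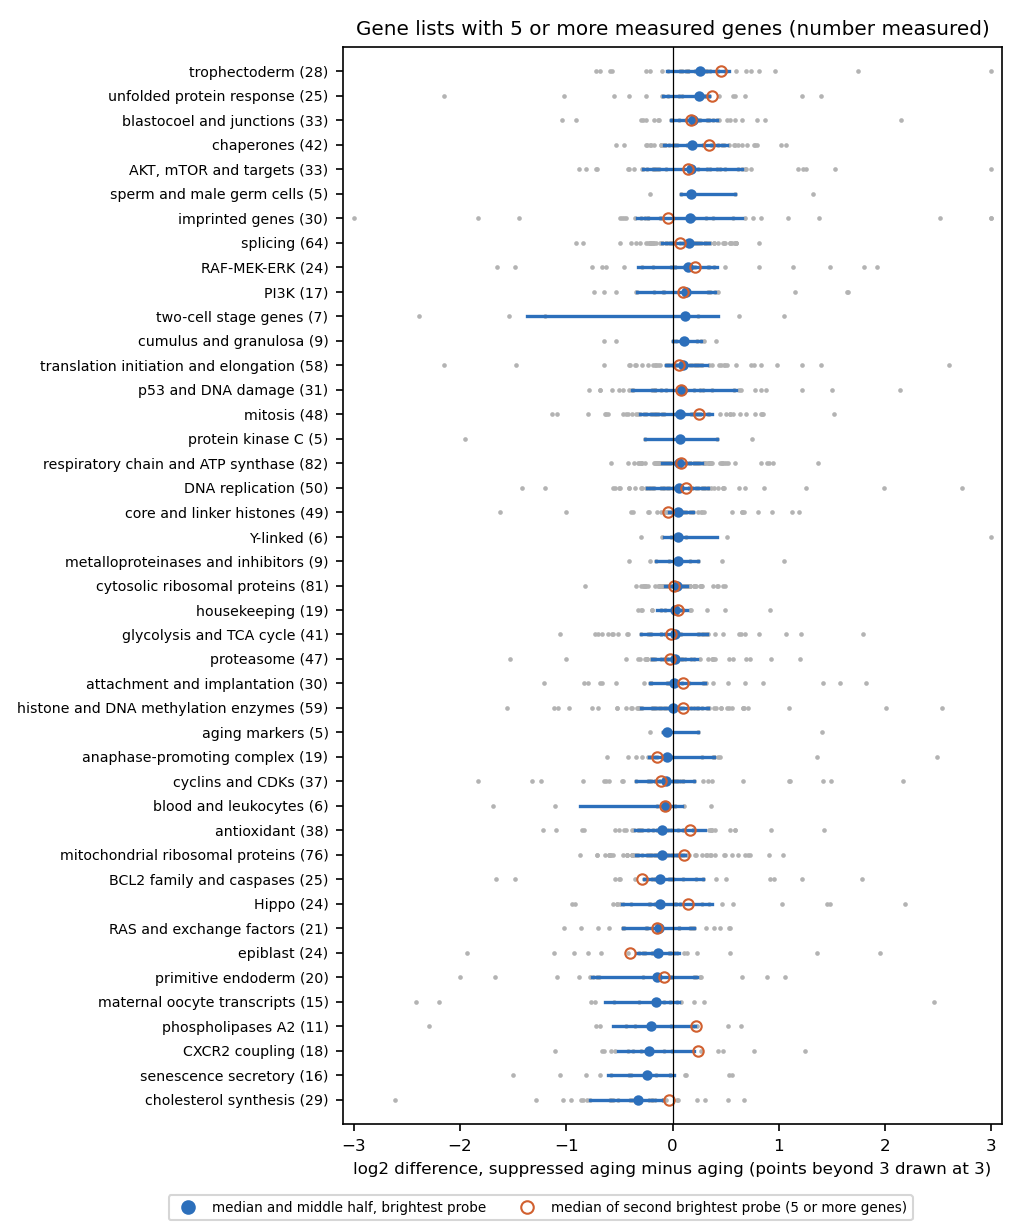
Log2 differences between the suppressed aging and the aging array (horizontal axis) are plotted for the 43 lists with 5 or more measured genes, with grey points for genes, blue points and lines for the median and the range between the quartiles, and open circles for the median of the second brightest probes. The medians run from -0.32 for cholesterol synthesis to 0.25 for trophectoderm, and the spread of genes in each list is wider than the distance of its median from 0.

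Trophectoderm genes tended to be higher after suppression, with 20 of 28 higher and a median of 0.25. Of all genes 50.2% were higher, and of the 2839 brightest, whose range holds the median level of this list (3.13), 54.1% were. Second probes were higher in 9 of 10 genes, with a median of 0.46, although the 2 probes of a gene shared their sign in only 5 of the 10. The differences were small for the genes that define the lineage, which are named here after their values were seen. Cdx2, the transcription factor that sets the trophectoderm, had levels of 3.83 in aging and 4.12 in suppressed aging blastocysts, against 4.20 on the young. Gata3, which acts with it, had levels of 5.48 and 5.98, against 5.67 on the young array. The keratins Krt18, the brightest member, and Krt8 differed by 0.21 and 0.09. Over 2-fold higher were 2 of the 28 genes (7.10% of all genes). These were Krt19 (1.74, level 0.57 against -1.17) and Ascl2, a placental transcription factor, at 2.80 against -1.80, which is 24.2-fold. Ascl2 has 1 measured probe and lay at -2.63 on the young array. Arid3a was the lowest member (-0.72), and Hand1, of the later trophoblast, was above background on the aging array only, at least 5.98-fold lower after suppression. In a pool of whole embryos, fewer cells of a lineage and less RNA per cell cannot be told apart.

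Epiblast genes were lower in 16 of 24 cases, with a median of -0.13, and the second probes in 7 of 8 cases, with a median of -0.40. The central pluripotency factors differed little. Nanog, the brightest member, had levels of 10.14 and 10.03 (second probe -0.13), Pou5f1 (OCT4) of 6.27 and 6.25, and Sox2 of 2.37 and 2.11, the last 2 named after their values were seen. Otx2, a factor of the later epiblast, was lowest at -1.94 (second probe -0.66), with a level of -1.05 after suppression, 0.89 without treatment and -0.22 on the young array. Klf2 and Klf4, factors of naive pluripotency named after their values were seen, differed by -0.93 and -0.80. Nodal, the ligand that patterns the epiblast, was highest (1.95), at low levels. Over 2-fold were 2 of the 24 genes in each direction, near the shares of all genes (7.10% higher and 7.14% lower).

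Primitive endoderm genes were lower in 13 of 20 cases, with a median of -0.15, while second probes were split 3 to 3. Over 2-fold lower were 3 of the 20 genes and over 2-fold higher 1, against 7.14% and 7.10% of all genes. Foxa2, an endoderm transcription factor, had levels of 1.01 in aging and -0.99 in suppressed aging blastocysts, a difference of -2.00, against 0.95 on the young array. Fgfr4, an FGF receptor of this lineage, was lower with both probes (-1.67 and -1.16). Gata6, which starts the lineage, and Pdgfra, its surface marker, both named after their values were seen, differed by -0.77 and -0.71. Gata4 and Sox17, which follow Gata6 and were also named after their values were seen, differed by -0.02 and 0.89. Lamb1, a laminin of the membrane that these cells lay down, was highest (1.05, second probe 0.12), and Lamc1, another laminin chain, was the brightest (0.21, second probe 0.94).

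**Figure D4:**
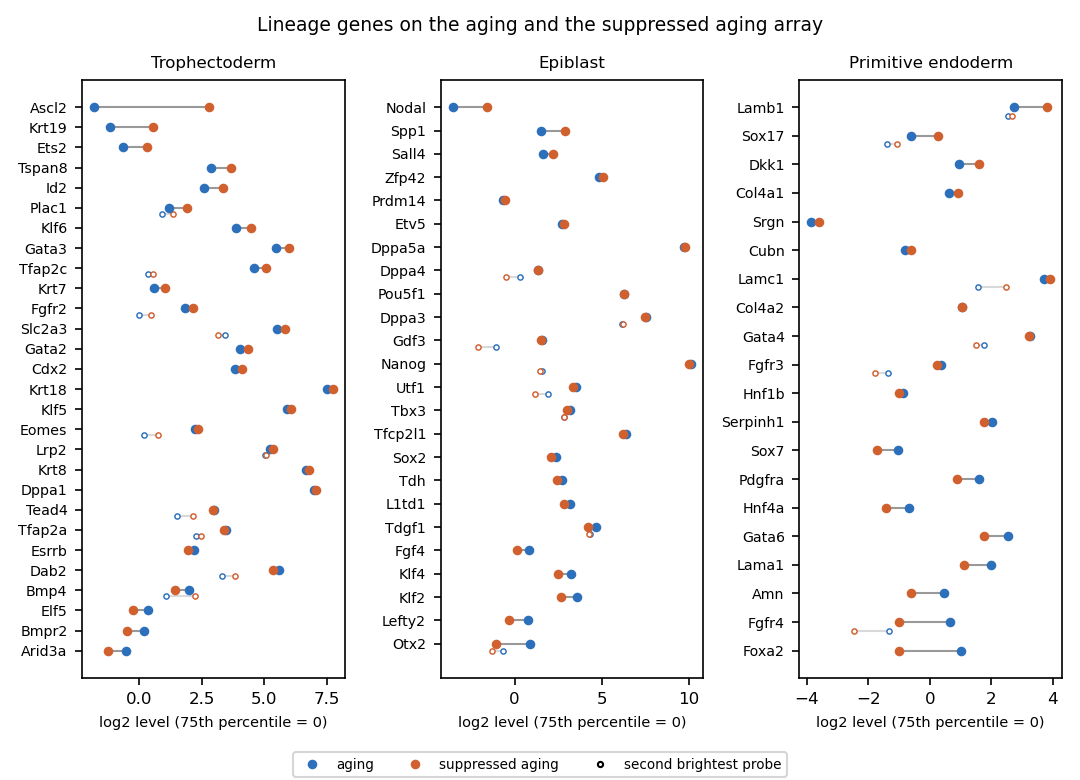
Log2 levels on the aging (blue) and the suppressed aging array (orange) are plotted for the measured genes of the trophectoderm, epiblast and primitive endoderm lists, in order of their difference, with small open circles for the second brightest probe. The bright genes of each list, such as Krt18, Nanog and Gata4, nearly coincide on the arrays, and the wide gaps are at dimmer genes such as Ascl2, Nodal, Otx2 and Foxa2.

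Cell junction and cavity genes were higher in 22 of 33 cases, with a median of 0.19 (second probes 8 of 12 higher, median 0.17). Fxyd4, a regulator of the sodium pump, was highest, at 4.0 against 1.9 (difference 2.15). Cldn6, a tight junction claudin, was the brightest (0.19). The water channel Aqp3 and E-cadherin (Cdh1), named after their values were seen, differed by 0.52 and 0.65. The pump subunit Atp1b2 was above background on the aging array only, at least 4.04-fold lower after suppression. Genes of attachment and implantation were split, with 16 of 30 higher and a median of 0.01. Lama5, a laminin chain that trophoblast lays down, was highest at 6.65 against 4.83 (3.53-fold), Ppard, a nuclear receptor, was lowest (-1.21), and Lgals1 was the brightest (0.29). Of 28 metalloproteinases and their inhibitors 9 were measured, from Timp1 (-0.41) to Mmp17 (1.05), with Mmp28 the brightest (0.05). Another 4 were above background on the suppressed aging array only and 1 on the aging array only, against 735 and 1119 of all 23462 named genes. The 4 were Mmp23, Mmp15, Mmp21 and Timp2, at least 3.56-fold, 1.69-fold, 1.55-fold and 1.33-fold higher. The 1 was Mmp11, at least 2.39-fold lower after suppression. Hippo pathway genes, which place the lineages, were higher in 11 of 24 cases, with a median of -0.12 that turned to 0.046 when the probes of a gene were averaged. Lats2 shows the limit of a single probe, with 2.18 from its brighter and -2.38 from its second probe.

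Genes of cholesterol synthesis and uptake were lower after suppression in 23 of 29 cases, with a median of -0.32, where the median of all genes was 0.00. In this pathway acetyl-CoA is built into sterols step by step, and the SREBP factors switch on most of its enzymes together when sterols are scarce. Over 2-fold lower were 3 of the 29 genes, against 7.14% of all genes, and none was over 2-fold higher by its brightest probe. The second probes did not show the same, with 6 of 12 lower, 6 higher and a median of -0.03, and 8 of the 12 genes had 2 probes of 1 sign. The median from the brightest probes was between -0.41 and -0.19 in all planned ways of processing.

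Hmgcs1, an early synthase, had levels of 4.60 in young, 4.06 in aging and 3.51 in suppressed aging blastocysts. Fdps and Fdft1, which build and join the farnesyl units, differed by -0.78 and -0.85 (second probe of Fdft1 -0.26). These 3 genes were named after their values were seen.

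Lss, which closes the ring, was the only member over 2-fold lower with both probes, at -0.68 against 0.35 for one and -1.97 against -0.72 for the other. Cyp51 had levels of 2.12 in aging and 0.84 in suppressed aging blastocysts (second probe -0.29), and Msmo1 of 3.31 and 2.35 (second probe -0.29), both named after their values were seen. Sc5d, near the last step, was lowest at -1.71 against 0.90, a 6.10-fold difference by its 1 measured probe, and lay at -0.73 on the young array. In the other direction lay Acaca, which makes malonyl-CoA for fatty acids (0.67, second probe 2.31). Pmvk, the brightest member, differed by 0.05 (second probe 0.26), and Mvk by -0.58 with its brighter and 0.83 with its second probe.

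**Figure D5:**
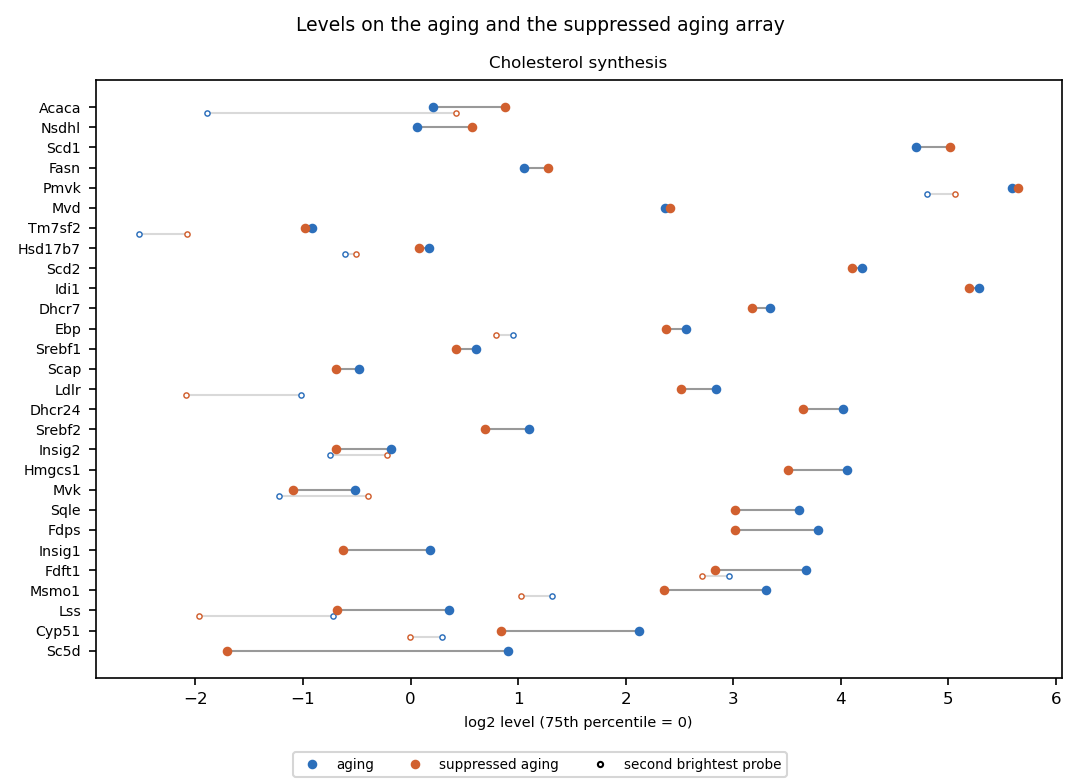
Log2 levels on the aging (blue) and the suppressed aging array (orange) are plotted for 28 of the 29 measured genes of the cholesterol list in order of their difference, with small open circles for the second brightest probe. The orange point lies left of the blue one in 22 of the genes drawn, from Tm7sf2 down to Sc5d, while the open circles of Mvk, Insig2, Hsd17b7 and Tm7sf2 run the opposite way.

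The 250 bases before the starts of these genes were read from RefSeq (GRCm38.p6) for the 21 of 29 measured genes with an entry. In all 6 patterns were searched on both strands, each after the values had been seen. The sterol element TCACNCCAC was in 1 of the 21 (Hmgcs1), against 1.22% of all 27025 genes with an entry, and its fixed form TCACCCCAC in the same number, against 0.555%. A looser form, TCACNNCAC, which includes both, was in 4 (3.63% of all). CCAAT was in 19 (37.5% of all and 40.2% of the 11273 measured genes), and so was CCAAT followed by 11 further bases inside the window (36.5% of all). GGGCGG was in 18 (35.4% of all and 57.9% of measured genes). Of the 16 members that were lower, 15 held CCAAT and 16 held GGGCGG. Matching letters are a description and not a site. The 140 bases before the start are given here for the gene with the sterol element and for Msmo1 and Lss, with matches to TCACNCCAC and CCAAT or its complement ATTGG in capitals.
Hmgcs1, chr13:119690211-119690350, plus strand: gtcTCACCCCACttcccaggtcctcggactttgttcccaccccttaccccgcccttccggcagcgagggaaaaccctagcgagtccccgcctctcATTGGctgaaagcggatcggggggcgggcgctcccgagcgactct
Msmo1, chr8:64733579-64733718, minus strand: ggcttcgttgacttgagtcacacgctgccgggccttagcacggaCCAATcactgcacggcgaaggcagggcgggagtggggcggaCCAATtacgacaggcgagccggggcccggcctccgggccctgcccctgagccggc
Lss, chr10:76531465-76531604, plus strand: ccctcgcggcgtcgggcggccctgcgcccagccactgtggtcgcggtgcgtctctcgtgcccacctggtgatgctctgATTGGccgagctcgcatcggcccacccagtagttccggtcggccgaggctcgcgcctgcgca

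Cytosolic ribosomal proteins were higher in 52 of 81 cases (64.2%) with a median of 0.05, which turned to -0.065 with normexp background correction. Of the 1420 brightest genes, whose range holds the median level of this list (7.33), 58.7% were higher, with a median of 0.05. In this list 0 of 81 differed over 2-fold in either direction. The shares were 1.76% higher and 0.141% lower among these brightest genes, and 7.10% and 7.14% among all genes. Differences in the list ran from Rpl22l1 (-0.82) to Rps2 (0.50, second probe 0.02), with Rpl41 the brightest (0.05). Mitochondrial ribosomal proteins were lower in 46 of 76 cases with a median of -0.10, though their second probes were higher in 13 of 21. Mrpl1 was higher with both probes (1.04 and 1.79), Mrpl39 was lowest (-0.88), and the bright Mrpl21 differed by 0.22. Respiratory chain and ATP synthase subunits were higher in 46 of 82 cases (median 0.06), from Ndufa7 (-0.58) to Cox7b2 (1.37), with Cox6a1 among the brightest (0.02). Proteasome subunits were split 24 to 23, from Psmg2 (-1.53) to Psmb10 (1.20), a subunit of the immunoproteasome, with Psme3 the brightest (0.05).

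Chaperones, which fold proteins, were higher in 28 of 42 cases with a median of 0.18, and second probes in 16 of 21 with a median of 0.35. Hspa8, the constitutive HSP70 and brightest member, differed by 0.46 and 0.35 with its 2 probes, Hspa4 was highest (1.07, second probe 0.37), and Dnaja3 lowest (-0.53, second probe 0.84). Hspa1b, a heat-inducible HSP70, was above background on the suppressed aging array only, at least 9.40-fold higher. Hspa1a, of the same list, was above background on the aging array only, at least 2.36-fold lower after suppression. Genes of the unfolded protein response were higher in 17 of 25 cases with a median of 0.25 (second probes 10 of 12, median 0.37). Sel1l, of the pathway that clears misfolded proteins from the endoplasmic reticulum, was higher with both probes (1.40 and 2.37), and Atf4, the brightest, gave 1.22 and 0.04. Eif2ak3 (PERK), a sensor of this stress that slows translation, was lowest (-2.15, second probe -0.62).

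Translation factors were higher in 39 of 58 cases (median 0.10) and splicing factors in 39 of 64 (median 0.16). Eif1ad was the highest translation factor (2.60), Eef1a1 the brightest (0.03), and Eif4e1b, a cap-binding protein of the oocyte, was lower with both probes (-1.47 and -1.52). Hnrnpdl (0.81) and Hnrnpll (-0.91) bounded the splicing list, whose brightest member Snrpg differed by 0.10. In this list 0 of 64 differed over 2-fold, where 7.10% of all genes were over 2-fold higher and 7.14% lower. Of the 2839 brightest genes, whose range holds the median level of the list (4.16), 3.66% differed over 2-fold. Histone genes were higher in 33 of 49 cases with a median of 0.06, which turned to -0.04 in the processing that lowered it most, and ran from Macroh2a2 (-1.62) to H4c8 (1.19), with H2aj the brightest (-0.02). Enzymes of histone and DNA methylation and acetylation were split 30 to 29, from Dot1l (-1.56, second probe 1.11) to Hdac8 (2.53), with Suv39h2 the brightest (0.04).

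Genes of p53 and DNA damage were higher in 16 of 31 cases (median 0.09). Gadd45b was lowest (-0.79) and Trp63 the brightest (0.11). BCL2 family members and caspases were lower in 15 of 25 cases (median -0.11), from Bmf (-1.67, second probe -0.53), which promotes cell death, to Birc3 (1.78), which inhibits it, with Bax the brightest (-0.20, second probe -0.44). Antioxidant genes were lower in 23 of 38 cases (median -0.10, second probes 0.16). Nfe2l2 (NRF2), which switches on many of them, was highest (1.43), Gstm1 lowest (-1.22, second probe 0.17) and Glrx2 the brightest (0.10). Glycolysis and TCA cycle genes were higher in 23 of 41 cases (median 0.02), from Pfkm (-1.06) to Suclg1 (1.79), with Aldoa the brightest (-0.11). The 19 housekeeping genes had a median of 0.03, from Tbp (-0.32) to Gusb (0.92), with Hsp90ab1 the brightest (0.00).

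Imprinted genes, which are read from 1 parental copy, had a wide spread around a median of 0.16, with 16 of 30 higher and 8 over 2-fold, 5 higher and 3 lower, against 7.10% and 7.14% of all genes. Of the 14 with 2 or more measured probes, 4 had both over 2-fold in the same direction, 2 higher and 2 lower, against 1.10% and 1.12% of all 2-probe genes. Meg3, a maternally expressed noncoding RNA, was lower (-3.90 and -1.49), at -3.45 against 0.44 with its brighter probe, and lay at -1.59 on the young array. Grb10, an inhibitor of growth factor signaling, was also lower (-1.44 and -1.72). Peg10, a paternally expressed gene needed for the placenta, was higher (1.38 and 1.84), at 3.44 against 2.06, and lay at 2.94 on the young array. Slc22a18 was higher (3.07 and 1.22), from low levels. Of the 38 imprinted genes on the array, 4 were above background on the suppressed aging array only and 1 on the aging array only. Of all 23462 named genes 735 and 1119 were. The 4 were Mkrn3, Nnat, Usp29 and Dlk1, at least 10.3-fold, 5.28-fold, 2.31-fold and 2.18-fold higher. The 1 was Ndn, at least 2.70-fold lower after suppression. The bright Kcnq1ot1 and Igf2r differed by -0.29 and 0.31, and Ascl2, described above, is also in this list.

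Markers of other cells and stages were mostly dim or not above background, with exceptions given below. Of 32 maternal oocyte transcripts 15 were measured, of which 10 were lower (median -0.15), from Ddx4 (-2.42) to Obox1 (2.46). Another 5 of the 32 were above background on the aging array only and 2 on the suppressed aging array only, against 1119 and 735 of all 23462 named genes. Zp2, of the egg coat, was among the 5, at least 7.97-fold lower, while Rfpl4 was at least 1.33-fold lower and Kit gave no bound. Dppa3, the brightest, differed by -0.02. Of 22 genes of the mouse two-cell stage 7 were measured, from Zfp352 (-2.38, second probe 0.68) to Zfp809 (1.05), with Sp110 the brightest (0.23, second probe 0.94). Of 21 cumulus and granulosa markers 9 were measured, from Amhr2 (-0.65) to Star (0.41), with Foxl2 the brightest, at 8.5 and 8.8 (0.23). Of 20 blood and leukocyte markers 6 were measured, from Hba-a1 (-1.69, second probe -0.81), a hemoglobin, to Csf1r (0.36), with Itgam the brightest, at 7.7 and 7.8 (0.11), and Hbb-b1 was above background on the aging array only. Of 15 sperm markers 5 were measured, from Tnp1 (-0.21) to Odf2 (1.32, second probe -0.17), and of 10 oviduct and uterine markers 3, from Esr1 (0.19) to Msx1 (0.56), with Wfdc2 at 0.32. The part of such cells in the differences was not tested. Of the Y-linked genes 6 were measured, from Uty (-0.30) to Rbmy (3.41), with Eif2s3y the brightest (0.51, second probe 0.22). The other 3 of the 9 on the array were above background on the aging array only, and 0 on the suppressed aging array only. Of all 23462 named genes 1119 and 735 were. The 3 Y-linked genes were at least 6.14-fold (Zfy2), 3.32-fold (Usp9y) and 2.32-fold (Zfy1) lower after suppression.

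Across the array, the genes whose 2 brightest probes both differed most were from many functions. The 10 highest were Anapc1, Strn4 (2.07 and 2.53), Ppip5k1 (1.98 and 2.33), Vps13a (1.94 and 2.86), Washc1 (1.88 and 1.89), Ikbkb (1.79 and 3.03), Cd3d (1.72 and 1.68), Wdsub1 (1.57 and 1.82), Kash5 (1.77 and 1.53) and E2f2. Further probes went the other way for Ppip5k1 (-0.87) and Wdsub1 (-1.15), and the means of all their probes were 1.15 and 0.75. Ikbkb is the kinase that frees NF-kappaB, and had levels of -0.18 on the suppressed aging, -1.97 on the aging and -0.05 on the young array. Washc1 belongs to the complex that sorts cargo at endosomes and was the brightest of these 10, at 4.82 against 2.94, with 2.54 on the young array. Cd3d is a part of the T cell receptor and lay at low levels of -0.49 and -2.21.

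The 10 lowest were Gm5907 (-2.30 and -2.43), Srgap1 (-2.44 and -1.99), Mink1 (-1.69 and -2.23), Slc26a11 (-1.59 and -1.74), 1700029I15Rik (-1.58 and -1.71), Chd5 (-2.34 and -1.57), Fes (-1.60 and -1.50), Wnk4 (-1.95 and -1.49), Meg3 and Cxcl16 (-1.70 and -1.49). Further probes were higher for Srgap1 (0.13) and Chd5 (0.49), and the means of all their probes were -1.43 and -1.14. Cxcl16 is a chemokine of another receptor, CXCR6, with levels of -1.42 on the suppressed aging, 0.28 on the aging and -1.11 on the young array. Srgap1, which regulates the actin skeleton, had levels of -1.25, 1.19 and -1.54 on these arrays. Gm5907 lay at -1.43, 0.87 and 0.91.

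Among the brightest 10% of genes, 1420 genes at a level of 4.31 or more, 25 genes (1.76%) were over 2-fold higher and 2 (0.141%) over 2-fold lower, with a median difference of 0.05. This imbalance depends on the processing, with 23 higher and 12 lower after normexp background correction, 20 and 6 after quantile normalization and 20 and 5 with the authors' values. The highest were Tubb2a, a beta-tubulin (5.98 against 3.09, 7.40-fold), Klf16 (5.78 against 3.06), Eif1ad (6.58 against 3.98), Ppp2r2c, a phosphatase subunit (6.95 against 4.76), Gpbp1 (5.44 against 3.31), Lama5, Pitpna (6.05 against 4.46), Usf2 (5.90 against 4.40), Spr (5.19 against 3.70) and Puf60 (5.50 against 4.02). These single probes had little backing where a second existed, since Gpbp1, Pitpna and Usf2 gave -0.11, -0.30 and -0.07 with theirs, and of the 25 genes 10 had a second probe, which was over 2-fold higher in 1. The 10 lowest were Trim28, Rex2, Syngr1, Zfp600, Rfx1, Jund, Fbrsl1, Apoe, Dctpp1 and Snrpb, from -1.32 to -0.84. Trim28, a silencer of retroelements and imprinted loci, was lowest with its brighter probe (3.74 against 5.06) but higher with its second (1.10). Rfx1 gave -0.91 with its brighter and 0.66 with its second probe. Fbrsl1 gave -0.89 and -0.71, but 1.58 with a further probe. The mean over all measured probes was -0.0082 for Fbrsl1 and -0.11 for Trim28. Apoe gave -0.89 and -0.20. Zfp600 was lower with both (-0.96 and -1.02), as were Jund (-0.90 and -0.55), a part of the AP-1 factor, and Snrpb (-0.84 and -0.44), a core splicing protein.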

How the data were processed

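The authors deposited linear spot intensities, background-subtracted and spatially detrended by Agilent Feature Extraction 12.0.3.1, with no normalization between arrays. The deposited table of processed values holds the same intensity times 1 factor per array. The paper's methods describe amplification by single-primer PCR, whereas the labels name a low-input cRNA labelling kit. All arrays were on 1 slide in 1 scan.

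Control spots and spots marked as outliers (85 for aging and 118 for suppressed aging blastocysts) were left out, and no spot was saturated. Log2 intensities were averaged over the spots of a probe, less the array's 75th percentile. Above background were 33218 and 31895 of 56605 probes, and 29760 on both arrays. A RefSeq table named 33767 probes by transcript accession. Its build differs from that of the array design, so it gave names only. A gene was read by the measured probe with the highest mean level, and a probe above background on 1 array gave a bound against the other array's detection limit.

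With 1 array per condition, no test was made. The comparison, the 47 gene lists and the thresholds were chosen with earlier results of these data known. Genes named were the ligands, receptors and aging markers, the brightest, highest and lowest measured gene of each list and those with 2 probes over 2-fold the same way, and the 10 most extreme 2-probe and bright genes in each direction. Most others are said to be named after their values were seen. Genes above background on 1 array only, other than the ligands and receptors, also fall outside this rule. Some genes that meet this rule are not reported here.

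Alternatives were normexp (limma 3.58.1, offset 50, on the median spot signal), quantile normalization, centring on measured probes or on housekeeping genes, the authors' values, outlier spots kept, the mean of all probes, probes above background on all 3 arrays, no filter, and thresholds of 1.5-fold and 5-fold. Second probes, and genes at a level of 0 or more, were added after seeing the data. Scripts were tested on simulated data. Python 3.11.15, pandas 2.3.3 and R 4.3.3 were used.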

Additional observations from a re-analysis of the deposited data

How the results depend on the processing

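No paired analysis was possible because neither condition was replicated, nor could a replicate be left out. Counts below are given as higher and lower after suppression. With normexp, 358 and 339 genes differed over 2-fold, 10 and 7 genes did so with both probes, and 23 bright genes were higher and 12 lower. Bright genes numbered 20 and 6 with quantile normalization, 23 and 4 with centring on housekeeping genes and 20 and 5 with the authors' values. Among all genes the counts were 927 and 1123 with centring on housekeeping genes and 818 and 1137 with the authors' values. These 2 ways moved the median of all genes to -0.05 and -0.09. Without a filter on dim probes, which moved the median of all genes to 0.13, the counts were 2480 and 2314, with both probes 160 and 146, and among bright genes 58 and 11. At 1.5-fold they were 2216 and 2330, with both probes 221 and 202, and among bright genes 102 and 32. At 5-fold they were 137 and 89, with both probes 1 and 0, and among bright genes 3 and 0.

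Of the 46 lists with a median, the sign changed in 15 with the authors' values, 12 with normexp, 10 with quantile normalization and 7 with centring on housekeeping genes, mostly in lists close to 0. Lists named next are those whose median was at least 0.1 from 0. Of these it changed for AKT and mTOR with normexp (-0.039). With the mean of all probes it did so for phospholipases A2 (0.0055), PI3K (-0.031) and Hippo (0.046), and without a filter for senescence-associated secreted proteins (0.17), phospholipases A2 (0.20) and two-cell stage genes (-0.076). Two-cell stage genes stood at -0.54 over probes above background on all 3 arrays. With second probes, chosen after seeing the data, the sign changed in 13 of 43 lists, and of those at least 0.1 from 0 it did so for CXCR2 coupling (0.24), phospholipases A2 (0.22), Hippo (0.15), imprinted genes (-0.042), cumulus and granulosa (-0.049) and sperm markers (-0.17). Over genes at a level of 0 or more, also chosen after seeing the data, it changed for RAS (0.064) and for AKT and mTOR (-0.14). The cause was not tested. The median of cholesterol synthesis ran from -0.41 to -0.19 and that of trophectoderm from 0.14 to 0.30 over all these ways but second probes, which gave -0.029 and 0.46. Among the most extreme 2-probe and bright genes, second probes had the opposite sign for Gpbp1 (-0.11), Pitpna (-0.30), Usf2 (-0.07), Trim28 (1.10) and Rfx1 (0.66). No other way of processing changed the sign of such a gene, though the mean of all probes brought Fbrsl1 to -0.0082 and Trim28 to -0.11. Signals near background limit what can be said of dim genes.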
